A study of Cercocebus atys with 16 samples.

Results

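The genes described here were grouped as brakes on PI3 kinase and genes of FOXO-linked quiescence: PIK3IP1, TSC22D3, TXNIP, ARRDC3, FOXO1, FOXO3, BTG1, BTG2 and TOB1. Their probes were found by gene name on an Agilent array with 43603 distinct non-control probes. The rule found 8 probes for 7 of the 9 genes, with 2 for PIK3IP1 and 1 for each of the other six. BTG1 and TOB1 gave no probe by gene name, and 4 more probes carry these genes only in their descriptions, 3 for BTG1 and 1 for TOB1. Those 4 are given apart from the 8 throughout.

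Most lymphocytes in blood are quiescent: small, out of the cell cycle and low in biosynthesis. PI3 kinase, which is switched on below the T cell receptor and CD28, activates the kinase AKT, and AKT phosphorylates the FOXO factors and keeps them out of the nucleus, where they would otherwise drive genes of rest, survival and homing. PIK3IP1 blocks PI3 kinase at the membrane, TXNIP and ARRDC3 are arrestin-like adaptors that take receptors and transporters off the cell surface, TSC22D3 is a leucine zipper protein induced by glucocorticoids and by FOXO3, and the BTG and TOB proteins bring the CCR4-NOT deadenylase to messenger RNA.

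The cells were CD3+ T cells without CD4 and CD8, called double-negative T cells, from the blood of 4 sooty mangabeys (Cercocebus atys), all infected with SIV. After a night of rest, at a labelled purity above 98%, they received anti-CD3 and anti-CD28 antibodies or were left unstimulated. The labelled doses were 3 mg/ml of anti-CD3 and 1 mg/ml of anti-CD28, and stimulated cells were taken 4 hours later. CD4 status was labelled low in animals FBR and FTV and normal in FNV and FKN, and no uninfected animal was included. Each animal had 2 ratio arrays, stimulated against unstimulated in both dye orientations, 1 stimulated self-self array and 1 unstimulated self-self array, which makes 16 arrays. The probes were designed on the rhesus macaque, and mismatches to mangabey RNA can weaken the signal of a probe.

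Between 33.3% and 65.0% of the spots in a channel were well above background, the low end being that of FNV, whose arrays belong to an earlier scan. Across the tested probes the responses of FKN, FBR and FTV correlated pairwise at 0.88 to 0.91, and those of FNV with the others at 0.68 to 0.74. The CD3 chains CD3D, CD3E and CD3G were well above background in all 32 channels. So was 1 of the 2 probes of CD4, which the cell isolation was meant to remove. The other CD4 probe was not above background often enough to be tested. CD8A, CD8B and the gamma delta receptor constants were not analysed here, since no probe carried their names. Of 13 monocyte markers, 10 were measured and the summed signal of their probes was, in linear intensity units, 9323 to 43394 in stimulated cells and 11648 to 124412 in unstimulated cells. The highest value in each condition was that of FNV, and each of the 10 was well above background in 28 or more channels. Of 9 B cell markers, 4 were measured, with sums of 734 to 2332 in stimulated cells and 2003 to 12930.5 in unstimulated cells. The highest B cell sum in each condition was again that of FNV, and the next highest unstimulated sum was 3436 in FKN. Some of these markers fell as well: 5 of the 10 monocyte markers passed as lower and 0 as higher. Their median response was -0.85 (log2). Of all tested probes, 20.4% fell and 19.9% rose at an adjusted p under 0.05. Among the B cell markers CD79B fell by 2.60 and MS4A1 by 1.15, while FCER2 rose by 0.36. T cell markers moved in both directions. Of 9 measured, 3 fell, among them CD5 by 1.00 and LCK by 0.66, and 3 rose, among them CD3D by 0.89. The T cell sum was lowest in FNV, at 79810 in stimulated cells against 107544 to 136920 in the other animals. In unstimulated cells it was 54259 in FNV against 90534.5 to 94210. The median monocyte response was -0.37 in FBR, -0.53 in FTV, -1.39 in FNV and -0.79 in FKN. Of 8 NK cell markers, 4 were measured, and 0 passed when each was taken by its brightest tested probe. For NKG7 that probe gave 0.19, but both other NKG7 probes rose, by 0.75 and 0.69 (limma adjusted p of 0.00417 and 0.0131). The NK cell sum was highest in FTV, at 23987 in stimulated cells against 3010 to 6124 in the other animals. In unstimulated cells it was 15006 in FTV against 2916 to 6632. Of 5 erythroid markers, 3 were measured, with sums of 5756 to 35047 in stimulated cells and 5109 to 45677 in unstimulated cells. Here FNV was the lowest animal in both conditions. The part of these other cells in the results below was not tested, and in bulk RNA fewer cells of a type and less RNA per cell cannot be told apart.

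The sequences below are those of the probes behind the calls, together with the BTG1 probes, to show which stretch of RNA each value reports. All lie on the minus strand of the rheMac2 genome, as the files give it, and are printed 5′ to 3′ in the sense of the transcript. Capitals mark ATTTA, a pentamer found in AU-rich elements of unstable messenger RNAs, which was searched on the printed strand only.

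PIK3IP1 probe 1 (chr10:75165360-75165419): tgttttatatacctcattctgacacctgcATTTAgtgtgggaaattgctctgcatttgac
PIK3IP1 probe 2 (chr10:75175460-75175519): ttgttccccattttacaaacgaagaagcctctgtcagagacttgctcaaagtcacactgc
TSC22D3 (chrX:106425493-106425552): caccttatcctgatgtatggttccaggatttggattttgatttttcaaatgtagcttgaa
TXNIP (chr1:126195825-126195884): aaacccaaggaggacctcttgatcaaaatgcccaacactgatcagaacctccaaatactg
FOXO3 (chr4:155216083-155216142): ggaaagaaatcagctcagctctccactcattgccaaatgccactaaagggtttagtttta
BTG1 probe 1 (chr11:93359099-93359158): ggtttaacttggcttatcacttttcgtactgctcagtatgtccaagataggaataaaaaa
BTG1 probe 2 (chr11:93362089-93362148): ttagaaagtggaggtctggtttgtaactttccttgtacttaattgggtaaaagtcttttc
BTG1 probe 3 (chr11:93362856-93362915): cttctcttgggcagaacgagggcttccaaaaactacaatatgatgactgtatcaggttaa

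ATTTA occurred in 1 of the 12 probes, PIK3IP1 probe 1, and in 7.32% of all 43603 probes. The probes of one gene were numbered by position, from the lowest coordinate. The files place the PIK3IP1 probes on 2 different transcripts, at base 2349 of one and base 935 of the other. They place BTG1 probe 3 at base 762 and BTG1 probe 2 at base 1529 of one transcript, and BTG1 probe 1 at base 4575 of another. The BTG2 probe, also 60 bases long, spans 1564 bases of the genome in the files, and the TOB1 probe lies on chromosome 16, the FOXO1 probe on 17 and the ARRDC3 probe on 6. Exon and UTR boundaries were not analysed here.

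The first comparison asked how each transcript responded to stimulation. Of the 8 probes, 5 fell: both PIK3IP1 probes, TSC22D3, TXNIP and FOXO3. By limma 0 of the 8 rose (1, BTG2, had a positive ratio at an unadjusted p of 0.0428), and ARRDC3, FOXO1 and BTG2 passed in neither direction. Among all 27493 tested probes, 20.4% fell and 19.9% rose at an adjusted p under 0.05, from limma with Benjamini-Hochberg adjustment over all of them, and the median response was -0.01 (log2). The same 5 probes had every stimulated level below every unstimulated level, which held for 8.44% of all probes. None of the 8 had every stimulated level above every unstimulated one, against 7.95% of all probes. The p-values measure the spread between these 4 animals, and the number of animals and arrays limits the precision. Without FNV the count of falls was again 5 of 8; the median monocyte response was negative in the other 3 animals as well.

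**Figure D1:**
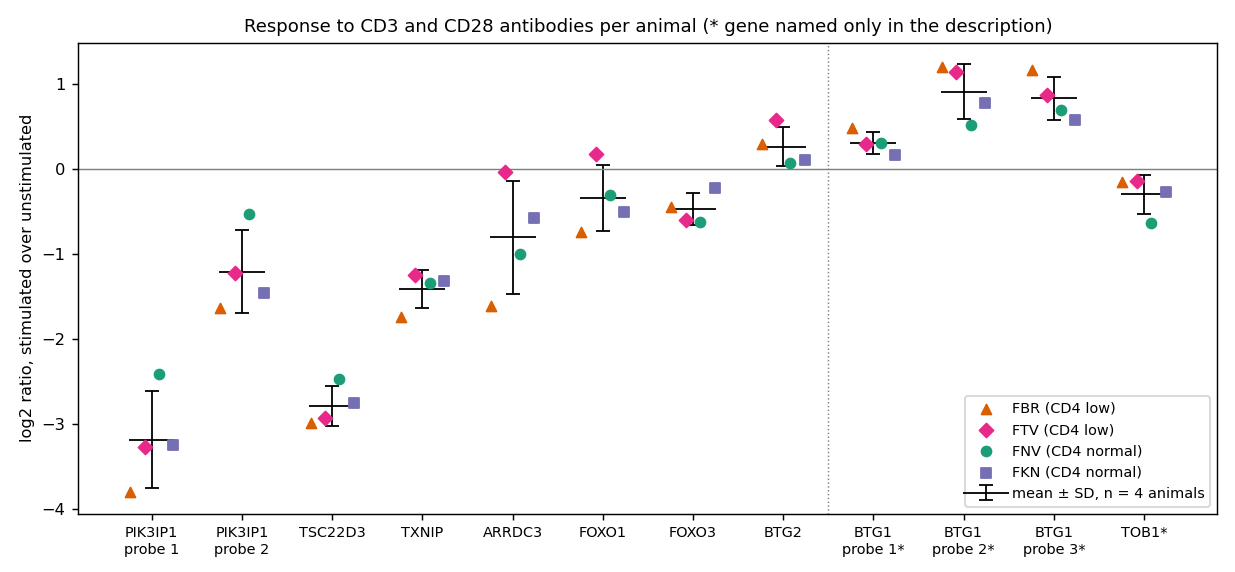
Response of each probe as the log2 ratio of stimulated over unstimulated RNA (y axis), with 1 point per animal and bars for the mean ± SD of 4 animals. All 4 points of PIK3IP1 probe 1 lie below -2.4 and those of TSC22D3 below -2.4, while the 3 BTG1 probes, right of the dotted line with TOB1, lie above 0 in all animals.

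PIK3IP1, the membrane inhibitor of the p110 subunit of PI3 kinase, had the largest fall of these genes. At probe 1 the log2 level in stimulated cells was 10.20 in FBR, 10.71 in FTV, 11.39 in FNV and 10.9997 in FKN, against 13.90, 14.02, 13.97 and 14.16 in unstimulated cells of the same animals. The unstimulated levels had an SD of 0.11 between animals and the stimulated levels an SD of 0.50 (n = 4 each), with a gap of 2.52 between the conditions. The ratio was -3.80 in FBR, -3.27 in FTV, -2.41 in FNV and -3.25 in FKN, so probe 1 fell by 3.18 ± 0.57 on the log2 scale (SD, n = 4), or 9.08-fold. It ranked 5th from the lowest of 27493 probes, with a limma adjusted p of 0.000778.

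PIK3IP1 probe 2, on the other transcript, fell by 1.21 ± 0.49 (log2; SD, n = 4), or 2.31-fold, with a limma adjusted p of 0.00663. Its level in stimulated cells was 7.01 in FBR, 6.96 in FTV, 7.03 in FNV and 7.13 in FKN, against 8.46, 8.03, 7.94 and 8.44 in unstimulated cells. The conditions did not overlap here either. This probe was well above background in 14 of 16 stimulated channels and in 16 of 16 unstimulated ones, so its stimulated levels lay near the background. The mean moved with the background treatment, to -1.98 with the scanner software's log ratio and -1.51 with a normexp offset of 16. Its ratio was -1.63 in FBR, -1.22 in FTV, -0.52 in FNV and -1.45 in FKN. At both probes FBR had the largest decrease and FNV the smallest.

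TSC22D3, also known as GILZ, fell by 2.78 ± 0.23 (log2; SD, n = 4), or 6.88-fold, with a limma adjusted p of 0.000466 and rank 16 from the lowest. The ratios were close together, at -2.98 in FBR, -2.93 in FTV, -2.46 in FNV and -2.75 in FKN. The level in stimulated cells was 9.58 in FBR, 9.66 in FTV, 10.696 in FNV and 9.74 in FKN, against 12.48, 12.56, 13.28 and 12.41 in unstimulated cells. FNV was the highest animal in both conditions, and its stimulated level still lay 1.72 below the lowest unstimulated one.

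**Figure D2:**
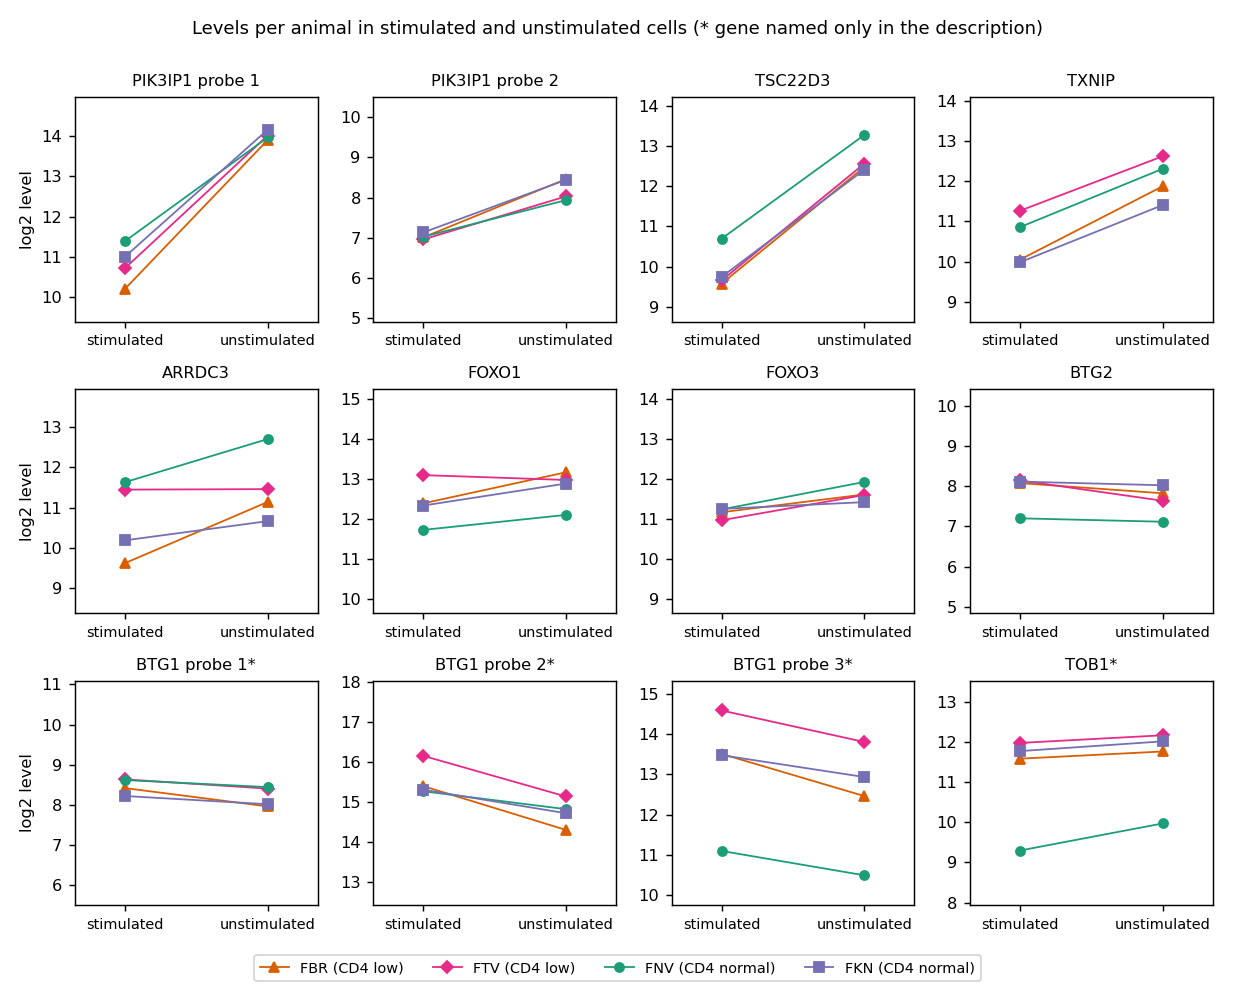
Log2 level of each probe in stimulated and unstimulated cells (x axis), 1 line per animal, with y axes of equal length but different position. Lines of PIK3IP1, TSC22D3, TXNIP and FOXO3 climb toward the unstimulated side in all 4 animals, and the FNV line lies below the others for FOXO1, BTG2, BTG1 probe 3 and TOB1.

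TXNIP, which binds thioredoxin and limits glucose uptake, fell by 1.41 ± 0.23 (log2; SD, n = 4), or 2.65-fold, with a limma adjusted p of 0.000778. Its level in stimulated cells was 10.05 in FBR, 11.27 in FTV, 10.86 in FNV and 9.98 in FKN, against 11.87, 12.62, 12.31 and 11.41 in unstimulated cells. The SD between animals was 0.63 in stimulated cells and 0.53 in unstimulated cells and the conditions were only 0.14 apart, while the ratio within an animal was even: -1.74 in FBR, -1.24 in FTV, -1.34 in FNV and -1.31 in FKN.

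ARRDC3, the other arrestin-like adaptor measured by name, varied most between animals. Its ratio was -1.60 in FBR, -0.03 in FTV, -1.002 in FNV and -0.57 in FKN, with a mean of -0.80 ± 0.67 (SD, n = 4) and a limma adjusted p of 0.0558. The levels overlapped, at 9.62, 11.45, 11.63 and 10.18 in stimulated cells of FBR, FTV, FNV and FKN and 11.14, 11.46, 12.71 and 10.66 in unstimulated cells. In FTV the 2 dye orientations gave 0.27 and -0.32, on either side of 0, and its unstimulated self-self array gave 0.46. Without FTV the mean was -1.06 with a limma adjusted p of 0.0306, and without FBR it was -0.53 with an adjusted p of 0.138. The probe passed under 5 of 18 alternatives, so whether it is called depended on single animals and on the processing.

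FOXO3, a forkhead factor that AKT holds in the cytoplasm, fell by 0.47 ± 0.19 (log2; SD, n = 4), or 1.39-fold, with a limma adjusted p of 0.0104. Its level in stimulated cells was 11.17 in FBR, 10.97 in FTV, 11.24 in FNV and 11.26 in FKN, against 11.62, 11.60, 11.93 and 11.42 in unstimulated cells, without overlap and with a gap of 0.17. The ratio was -0.44 in FBR, -0.60 in FTV, -0.62 in FNV and -0.22 in FKN. The call ended under 3 of the 18 alternatives: without FBR (limma adjusted p of 0.0507), with median centring of the arrays in place of loess (0.234) and on the self-self arrays alone without the replicate block (0.0833).

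FOXO1, the FOXO factor best known for controlling homing and IL-7 receptor genes in T cells, had a mean ratio of -0.34 ± 0.39 (SD, n = 4) and a limma adjusted p of 0.135. The ratio was -0.74 in FBR, 0.18 in FTV, -0.31 in FNV and -0.50 in FKN. Its levels overlapped, at 12.39, 13.09, 11.73 and 12.34 in stimulated cells of FBR, FTV, FNV and FKN and 13.17, 12.97, 12.10 and 12.88 in unstimulated cells. Without FTV the mean was -0.51 with a limma adjusted p of 0.0322, and without FBR it was -0.21 with an adjusted p of 0.372, so single animals moved it both ways. The 95% interval of the mean over all 4 animals ran from -0.73 to 0.05.

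BTG2, an antiproliferative gene that p53 can induce, had a positive ratio in 4 of 4 animals: 0.30 in FBR, 0.58 in FTV, 0.07 in FNV and 0.11 in FKN. The mean of 0.26 ± 0.23 (SD, n = 4) did not pass, with a limma adjusted p of 0.0876, and without FTV it was 0.16 (0.209). Its levels overlapped, at 8.08, 8.15, 7.20 and 8.12 in stimulated cells of FBR, FTV, FNV and FKN and 7.83, 7.64, 7.12 and 8.03 in unstimulated cells. It was well above background in 14 of 16 stimulated channels and 16 of 16 unstimulated ones.

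The 3 probes that carry BTG1 only in their descriptions all rose. BTG1, with BTG2, holds mouse T cells in quiescence. BTG1 probe 2 rose by 0.91 ± 0.32 (log2; SD, n = 4; 1.88-fold), probe 3 by 0.83 ± 0.26 and probe 1, the farthest along its transcript, by 0.31 ± 0.13. The limma adjusted p was 0.00496, 0.00361 and 0.0195 for probes 2, 3 and 1, and each was higher in 4 of 4 animals. At probe 2 the level in stimulated cells was 15.39 in FBR, 16.15 in FTV, 15.27 in FNV and 15.31 in FKN, against 14.30, 15.14, 14.82 and 14.72 in unstimulated cells. These did not overlap, by 0.13, while the levels of probes 1 and 3 did.

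At BTG1 probe 3 the stimulated cells had 13.51 in FBR, 14.59 in FTV, 11.09 in FNV and 13.48 in FKN, against 12.46, 13.81, 10.49 and 12.93 in unstimulated cells. FNV was the lowest animal in both conditions. On the self-self arrays this probe gave -0.72 to -0.05, with no array above 0, so its channels were not even, and averaging the 2 dye orientations was needed. At probe 1 the call was lost under 6 of 18 alternatives: without FBR (limma adjusted p of 0.0811), without FTV (0.0659), with median centring (0.23), with stimulated RNA in Cy3 alone (0.0546), and on the self-self arrays alone with the replicate block (0.126) and without it (0.541). Probe 2 lost its call with median centring (0.0617) and on the self-self arrays without the block (0.188), and probe 3 on the self-self arrays without the block (0.774).

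The probe described as TOB1, which like BTG1 binds the deadenylase, had ratios of -0.15 in FBR, -0.14 in FTV, -0.63 in FNV and -0.27 in FKN. Its mean of -0.30 ± 0.23 (SD, n = 4) did not pass, with a limma adjusted p of 0.0638. It passed as lower with the scan batch as a term (0.00861) and with stimulated RNA in Cy3 alone (0.021), and without FNV the mean was -0.19 (0.0527). The level in stimulated cells was 11.59, 11.98, 9.30 and 11.77 in FBR, FTV, FNV and FKN, against 11.76, 12.17, 9.97 and 12.02 in unstimulated cells. FNV lay about 2 units below the other animals in both conditions, as at BTG1 probe 3.

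The self-self arrays, which hold one RNA in both channels, gave the size of a ratio without a difference in RNA. For PIK3IP1 probe 1 the 8 ratio arrays ran from -3.86 to -2.32, while the 8 self-self arrays ran from -0.12 to 0.06. For TSC22D3 the ratio arrays ran from -3.05 to -2.33 and the self-self arrays from -0.14 to 0.10, and for TXNIP the ratio arrays from -1.84 to -1.18 and the self-self arrays from -0.18 to 0.09. For PIK3IP1 probe 2 the ratio arrays gave -1.69 to -0.40 and the self-self arrays -0.11 to 0.05. At these 4 probes every ratio array lay beyond every self-self array. FOXO3 did not reach that, with ratio arrays of -0.85 to -0.18 and self-self values of -0.19 to 0.03, and neither did ARRDC3, FOXO1 and BTG2. The exchange of dyes moved the ratio of an animal by at most 0.18 for PIK3IP1 probe 1, 0.26 for TSC22D3 and 0.59 for ARRDC3.

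**Figure D3:**
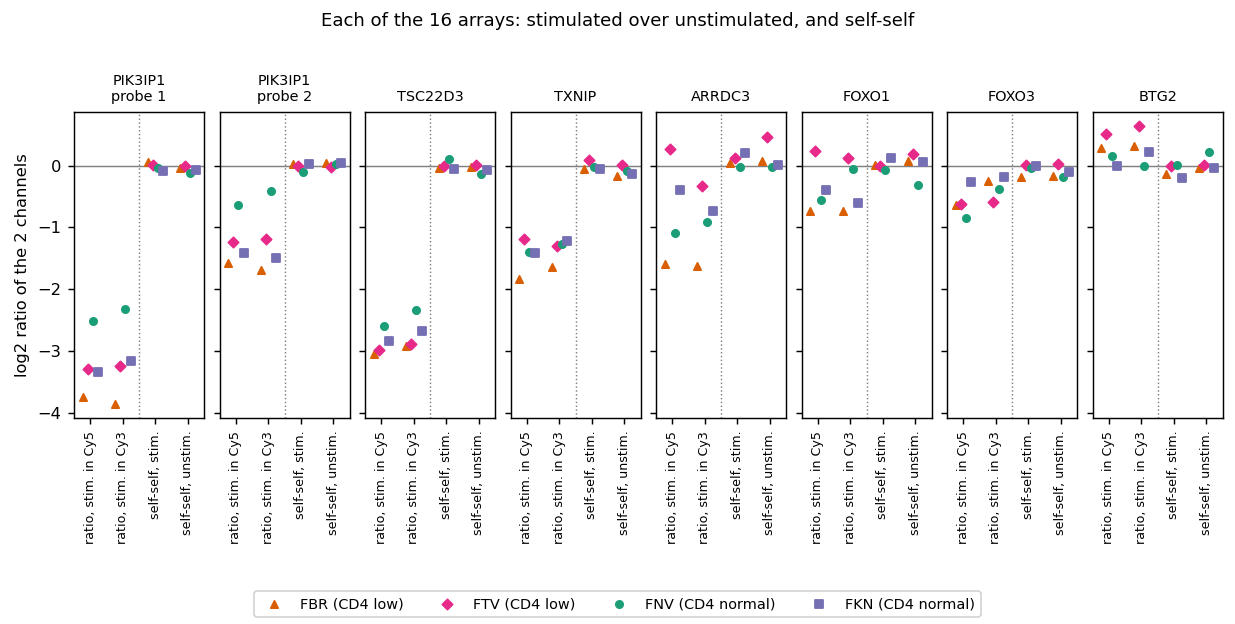
Log2 ratio of the 8 probes found by gene name on each of the 16 arrays, with the 2 dye orientations of the ratio arrays (stimulated over unstimulated) left of the dotted line and the self-self arrays (Cy5 over Cy3) right of it, 1 point per animal. The ratio arrays of PIK3IP1, TSC22D3 and TXNIP stand clear of the self-self arrays, and those of ARRDC3, FOXO1 and FOXO3 reach into their range.

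The lists of related genes were examined next, each gene by its brightest tested probe, to place these responses in their pathways. The counts stand against the 20.4% of all tested probes that fell and the 19.9% that rose. In the PI3K pathway 17 of 26 listed genes were tested, of which 5 fell (29.4%), 4 rose (23.5%) and 8 passed in neither direction, with a median of -0.17. TSC2, which restrains mTOR, fell by 0.57 ± 0.17 on the log2 scale (SD, n = 4), PIK3CB, a catalytic PI3 kinase subunit, by 0.50 ± 0.17 and RICTOR, a subunit of mTOR complex 2, by 0.48 ± 0.25. PIK3R4, a regulatory subunit of the class III kinase, rose by 0.56 ± 0.07, MAPKAP1, a subunit of the same complex as RICTOR, by 0.42 ± 0.27 and PIK3R3, a regulatory PI3 kinase subunit, by 0.42 ± 0.25. A second PIK3R3 probe gave -0.09 and passed in neither direction, and the first gave 0.75 with the scanner software's log ratio. A second PIK3R4 probe gave 0.27 and did not pass either.

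Among other brakes on PI3K and mTOR, 12 of 15 were tested, with 3 falls (25%), 4 rises (33.3%) and a median of 0.09. INPPL1, a lipid phosphatase, fell by 1.24 ± 0.27 on the log2 scale (SD, n = 4), PPP2R5C, a regulatory subunit of phosphatase 2A, by 1.11 ± 0.24 and SESN1, which restrains mTOR complex 1 under stress, by 0.60 ± 0.33. TRIB1, a pseudokinase, rose by 1.27 ± 0.67, INPP4B, another lipid phosphatase, by 1.12 ± 0.45 and SESN3, a relative of SESN1, by 0.82 ± 0.20. PIK3IP1 and INPPL1, which act against PI3 kinase signals, fell, and INPP4B, which does so too, rose. The other INPPL1 probe fell by 0.45, and both other PPP2R5C probes fell by more, at 1.74 and 1.86.

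Of the FOXO targets and partners, 16 of 24 were tested, with 7 falls (43.8%), 3 rises (18.8%) and a median of -0.29. FOXO4, another FOXO factor, fell by 1.68 ± 0.23 on the log2 scale (SD, n = 4). IRS2, an insulin receptor adaptor, fell by 1.54 ± 0.34, although its second probe fell by 0.52, and FBXO32, a ubiquitin ligase subunit, by 1.42 ± 0.14. BCL2L11, which encodes the death protein BIM, rose by 0.95 ± 0.25, GADD45A, a stress and DNA damage gene, by 0.58 ± 0.27 and USP7, a deubiquitinase, by 0.40 ± 0.10. The 3 BCL2L11 probes did not share a size, at 0.95, 0.52 and 0.01, and the third passed in neither direction. The limma adjusted p was 0.000624, 0.00122 and 0.000529 for FOXO4, IRS2 and FBXO32.

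**Figure D4:**
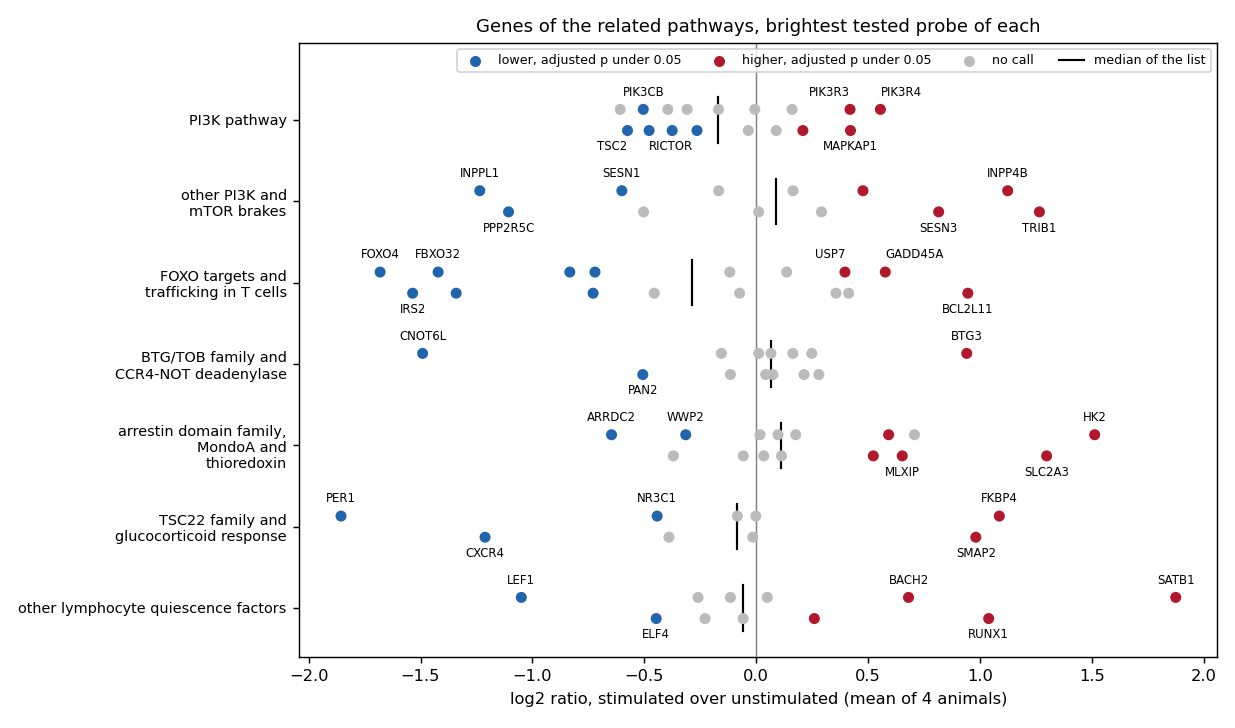
Mean log2 ratio of stimulated over unstimulated RNA (x axis; 4 animals) for each tested gene of 7 related lists, 1 point per gene, with the list median as a vertical bar and names at up to 3 falls and 3 rises of a list. The medians lie between -0.29 and 0.11, and each list holds genes that fell and genes that rose.

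In the BTG and TOB family with the CCR4-NOT deadenylase, 13 of 17 were tested and 10 passed in neither direction, with a median of 0.07. BTG3, a relative of BTG1, rose by 0.94 ± 0.37 (log2; SD, n = 4), with a limma adjusted p of 0.00646. CNOT6L, a catalytic subunit of the deadenylase, fell by 1.49 ± 0.44 on the log2 scale (limma adjusted p of 0.0025) and PAN2, of another deadenylase, by 0.51 ± 0.30 (0.0257). A second PAN2 probe gave -0.31 and passed in neither direction. In this list 2 genes fell (15.4%) and 1 rose (7.69%).

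In the arrestin domain family, with the ubiquitin ligases, the TXNIP regulators and the thioredoxin and glucose genes, 15 of 19 were tested, with 2 falls (13.3%), 5 rises (33.3%) and a median of 0.11. ARRDC2, a relative of ARRDC3, fell by 0.65 ± 0.22 on the log2 scale (SD, n = 4) and WWP2, a NEDD4-family ubiquitin ligase, by 0.31 ± 0.07, although another WWP2 probe gave 0.10 and the self-self arrays alone gave -0.07. HK2, a hexokinase, rose by 1.51 ± 0.94, SLC2A3, a glucose transporter, by 1.30 ± 0.30 and MLXIP, the sugar-sensing factor MondoA that drives TXNIP, by 0.65 ± 0.10. TXNIP fell and MLXIP rose in the same bulk RNA samples, with limma adjusted p of 0.000778 and 0.0015. HK2 was uneven between animals, at 2.48 in FBR, 1.39 in FTV, 0.28 in FNV and 1.91 in FKN.

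For TSC22D3, the related list of glucocorticoid response genes had 9 of 13 tested, with 3 falls (33.3%), 2 rises (22.2%) and a median of -0.08. PER1, a clock gene that glucocorticoids induce, fell by 1.86 ± 0.36 on the log2 scale (SD, n = 4), CXCR4, a chemokine receptor, by 1.21 ± 0.49 and NR3C1, the glucocorticoid receptor itself, by 0.44 ± 0.14. The other NR3C1 probes gave -0.47, which passed, and -0.42, which did not. FKBP4, a chaperone of the receptor, rose by 1.09 ± 0.33 and SMAP2, a trafficking gene, by 0.98 ± 0.34.

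The last list, of other quiescence factors of lymphocytes, had 11 of 14 tested, with 2 falls (18.2%), 4 rises (36.4%) and a median of -0.06. LEF1, a factor of naive T cells, fell by 1.05 ± 0.14 on the log2 scale (SD, n = 4) and ELF4, which restrains T cell proliferation, by 0.45 ± 0.13. SATB1, a chromatin organiser, rose by 1.88 ± 0.31, RUNX1 by 1.04 ± 0.20 and BACH2, a repressor of effector genes, by 0.68 ± 0.44. The 6 RUNX1 probes ranged from 0.13 to 1.06 and none was below 0, but those at 0.13 and 0.23 did not pass.

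Of the 36 genes named from these lists, 7 kept their call under every alternative run: PPP2R5C, FOXO4, IRS2, FBXO32, CNOT6L, PER1 and SATB1. In the alternative with the authors' table the value is that of a transcript, which for PPP2R5C was -1.64 against -1.11 at the probe used here. The self-self arrays alone ended the call of 25 without the replicate block and of 4 with it. Median centring in place of loess ended the call of 17: PIK3CB, PIK3R3, PIK3R4, TSC2, MAPKAP1, SESN1, TRIB1, GADD45A, USP7, BTG3, PAN2, WWP2, MLXIP, HK2, NR3C1, SMAP2 and BACH2. Leaving out FBR ended 10 calls, FTV 7, FKN 7 and FNV 0, and 0 of the 36 changed direction in any alternative.

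The genes with the most similar profile were sought by the root mean square distance between centred log2 levels over the 8 combinations of animal and condition. For PIK3IP1 probe 1 these were the small GTPase gene RAB37 (0.25), the cytokine gene IL16 (0.33) and FAM78A (0.35), where the median distance over all tested probes was 1.65. For TSC22D3 they were GPR44 (0.20), a prostaglandin D2 receptor, SNAI3 (0.27) and TNFSF12 (0.28), with a median of 1.47. For BTG2, the gene with the highest mean ratio among the 8 probes, they were ZBTB6 (0.08), HAUS2 (0.08) and RBM15B (0.08), with a median of 0.49. The distances are in log2 units, and each profile holds only 4 animals. The genes were picked as the closest, so their distances had to lie below the median, and their likeness was not tested.

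The second comparison set CD4-low animals against CD4-normal animals, 2 against 2. None of the 8 probes passed for the response, the unstimulated levels or the stimulated levels, and neither did any of the 27493 tested probes, so that 0% were called in each of the 3 comparisons by limma. At an unadjusted p under 0.05, limma gave 594 probes for the response, 453 for the unstimulated levels and 571 for the stimulated levels, and none of the 8 was among them. Of the probes named only in the description, BTG1 probe 2 was among the 594. Its mean response was 1.18 in CD4-low animals and 0.65 in CD4-normal animals, with an unadjusted limma p of 0.0204. The mean response of PIK3IP1 probe 1 was -3.53 in CD4-low animals and -2.83 in CD4-normal animals, a difference of -0.70 with a standard error of 0.35 and an unadjusted p of 0.111 (limma adjusted p of 1). That of TSC22D3 was -2.96 in CD4-low animals and -2.61 in CD4-normal animals, and that of BTG2 was 0.44 in CD4-low animals and 0.09 in CD4-normal animals. In the responses of PIK3IP1 probe 1, TSC22D3 and BTG2, 3 of the 8 probes, the animals of the groups did not overlap. In either direction this held for 27% of all tested probes, and FNV held the value nearest 0 at each of the 3. Among the probes named only in the description, the responses of BTG1 probes 2 and 3 and of TOB1 did not overlap either, while those of BTG1 probe 1 did.

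By level, PIK3IP1 probe 1 in stimulated cells averaged 10.46 in CD4-low animals and 11.19 in CD4-normal animals, and in unstimulated cells 13.96 in CD4-low animals and 14.07 in CD4-normal animals. FOXO1 averaged 12.74 in CD4-low animals and 12.03 in CD4-normal animals when stimulated, and 13.07 in CD4-low animals and 12.49 in CD4-normal animals when unstimulated, without overlap in either condition. In stimulated levels the groups did not overlap at 5 of the 8 probes and in unstimulated levels at 1 of the 8, FOXO1, against 33.9% of all tested probes in each. The limma adjusted p was 0.836 for both stimulated differences. Without FKN, TSC22D3 differed in stimulated levels by -1.08 (CD4-low minus CD4-normal; limma adjusted p of 0.0424) and BTG2 by 0.91 (0.0465), beside 15.8% of all tested probes, with FNV as the only CD4-normal animal and its spread assumed to be that of the others. FNV is 1 of the 2 CD4-normal animals and the one in the earlier scan, so that scan and animal cannot be told apart in this comparison.

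The authors' deposited table gives their own log2 ratio per animal, as stimulated over unstimulated, although how it was centred and corrected for background is not known. For PIK3IP1 probe 1 the authors' deposited table gives -3.87 in FBR, -3.32 in FTV, -2.42 in FNV and -3.31 in FKN, close to the ratios above. For PIK3IP1 probe 2 the authors' deposited table has a mean of -1.88, larger in size than the -1.21 found here for this dim probe and near the value that the scanner software's log ratio gave. For TSC22D3 its mean in the authors' deposited table was -2.85, and for TXNIP -1.46. FOXO3 has no value for FNV in the authors' deposited table and a mean of -0.46 over the other 3 animals.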

How the data were processed

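The authors deposited unnormalised scanner files, in which each spot has a mean intensity and a local background intensity per channel. Per the file headers they were written by version 10.7.3.1 of Agilent Feature Extraction, which also made the log10 ratio (red over green) in these files. The authors' deposited table holds 1 log2 ratio per animal, stimulated over unstimulated, which correlated with the ratios computed here at 0.794 to 0.874 across probes. How that table was made is not stated; the submitters' processing notes name limma, with no role. Of its 41687 identifiers 40648 matched the array. Probes were matched to it by transcript identifier first, so probes of one transcript share a value, as BTG1 probes 2 and 3 did (0.96).

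In R 4.3.3 with limma 3.58.1 and version 1.17.8 of data.table, intensities were corrected by normexp (offset 50) and normalised by loess within arrays, giving no weight to control spots and outliers. No more than 51 outlier spots per array were then removed, and 0 spots were saturated. One dye orientation had its sign turned and was averaged with the other, so each ratio is paired within an animal and n = 4. On 1 ratio array of FNV the title puts stimulated RNA in channel 2 and a characteristic puts unstimulated RNA there; the title and the stated dye flip were followed. Probes were tested if, in 2 or more animals, both ratio arrays showed one condition well above background (27493 probes). Responses were tested against 0 with lmFit and eBayes, CD4-low minus CD4-normal likewise, with Benjamini-Hochberg adjustment over all tested probes at a threshold of 0.05. The test was also run on simulated ratios, drawn independently for each probe and animal. These hold no scan difference and no correlation between probes, so they do not check the calls against either. Levels used Aquantile normalisation and the mean of 4 channels; levels of different probes are not comparable.

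The arrays carry 2 annotation editions that name 8125 of 43803 spots differently; a probe counted where either names a gene. FOXO3 and PIK3IP1 probe 2 carry their names in the newer edition only. Named genes were all member probes, for each list the 3 largest rises and 3 largest falls past the threshold by the brightest tested probe, and the 3 most similar genes of 3 members. One item of the lists is not reported here. The genes and lists were chosen with earlier results of these data known. Alternatives were other background correction, normalisation, filters, single dyes, self-self arrays, scan batch, the authors' table and leaving out each animal. Figures used Python 3.11.15 and matplotlib 3.10.9.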

Additional observations from a re-analysis of the deposited data

Results flagged for a closer look

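Of 72 groups of 4 animals examined, 7 held an animal far from the other three, and chance flags about 1 group in 20. Among stimulated levels (log2), BTG2 was 7.20 in FNV against 8.08 to 8.15 in the other animals, and the TOB1 probe was 9.30 in FNV against 11.59 to 11.98. TSC22D3 was 10.696 in FNV against 9.58 to 9.74, and BTG1 probe 2 was 16.15 in FTV against 15.27 to 15.39. Among responses (log2), PIK3R3 was 0.79 in FKN against 0.27 to 0.34, PAN2 was -0.96 in FKN against -0.39 to -0.34, and SLC2A3 was 1.75 in FTV against 1.11 to 1.18.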

How the results depend on the processing

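Of the 8 probes found by gene name, 4 to 7 fell when 1 animal was left out and 4 to 6 under the other alternatives, against 5 in the main analysis, and 0 rose under any of them. Counting the probes named only in the description, a choice made after seeing the data, brought the rises to 3. The ratios are within an animal; on the self-self arrays alone, 5 probes fell with the replicate block and 4 without it. Both PIK3IP1 probes, TSC22D3 and TXNIP kept their call under each alternative that tested them. For CD4 status in stimulated levels the count of the 8 was 0 to 2 when 1 animal was left out (TSC22D3 and BTG2, without FKN, beside 4339 of all probes). Over all probes, 5616 fell and 5466 rose. These became 2902 and 1949 with median centring, 2859 and 2937 without FKN, 3076 and 3168 without FBR, 3593 and 3537 without FTV, and 1146 and 1115 on the self-self arrays without the replicate block. For single probes, 763 results under an alternative kept their side of the threshold, 92 lost it, 8 gained it and all kept their direction. ARRDC3 passed under 5 of 18 alternatives, with adjusted p of 0.0187 to 0.535, and the causes were not tested. Signal over background limits PIK3IP1 probe 2 and BTG2.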
